A study of Mus musculus with 12 samples.

Results

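The 39 genes described here encode the ephrin, Slit and netrin guidance cues and their receptors. They were picked by symbol, as all protein-coding genes named Epha1 to Epha8, Epha10, Ephb1 to Ephb4, Ephb6, Efna1 to Efna5, Efnb1 to Efnb3, Slit1 to Slit3, Robo1 to Robo4, Ntn1, Ntn4, Ntng1, Ntng2, Unc5a to Unc5d, Dcc and Neo1, and each symbol matched 1 Ensembl identifier. They are 39 of the 55487 gene identifiers counted, 15 of them ligands and 24 receptors, and all 39 had at least 1 read in each of the 12 libraries. All 39 also passed the filter on low counts in each of the 4 tests below.

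Ephrins are ligands held on the cell surface, by a lipid anchor in the A class and by a transmembrane segment in the B class, and they bind Eph receptor tyrosine kinases on touching cells, with signals passing into both cells. Slits are secreted proteins that repel growing axons through Robo receptors, and netrin-1 is a secreted cue that attracts axons through Dcc and repels them when Unc5 receptors take part. In the forebrain these systems guide axons and migrating neurons before and around birth, and in the hippocampus Eph receptors and ephrins also act at synapses and dendritic spines.

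Each library was made from 1 male mouse, with 3 mice in each of the 4 groups. Exon 7 of Auts2, a neurodevelopmental regulator, was flanked by loxP sites and removed by Cre. At postnatal day 0 (P0), whole forebrain of homozygous Cmv-cre Auts2-ex7 knockouts was compared with forebrain of littermates labelled wild type on a BL6 background. At postnatal day 14 (P14), hippocampus of homozygous Nes-cre Auts2-ex7 knockouts was compared with hippocampus of littermates labelled as heterozygous for the floxed allele, and the labels do not say whether those controls carried Cre. Cmv-cre acts throughout the body, and Nes-cre acts in neural progenitors and the cells derived from them. The P0 and P14 sets differ in age, tissue, the genotype of the controls and the Cre line at once, and the shares of these in a difference between the sets cannot be told apart.

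The P0 libraries held 11247150 to 16796797 counted reads and the P14 libraries 16830720 to 23340621. The third library of each P0 group came from a later library number series and was deeper than the others, and at P14 the third control stood furthest from its group. Auts2, counted over all its exons and isoforms, stood at 161 to 182 CPM (normalized read counts, scaled to equal library sizes) in the P0 knockouts and 136 to 160 CPM in their controls. At P14 it stood at 75.2 to 92.98 CPM against 97.5 to 110.3 CPM. Neither Auts2 difference passed the threshold, with a log2 fold change of 0.16 at P0 (SE 0.08, edgeR adjusted p = 0.362) and -0.30 at P14 (SE 0.09, edgeR adjusted p = 0.111). These gene totals do not measure exon 7 itself.

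Levels of different genes were compared per length, as CPM per kilobase of merged exons. On that scale Efnb3, a transmembrane ephrin, was the highest of the 39 genes in 3 of the groups, at 84.3 in P0 knockouts, 83.1 in P0 controls and 68.5 in P14 knockouts, and at 63.5 it was just under Epha4 in P14 controls. In CPM, Efnb3 stood at 258.6, 250.6 and 296.2 in the P0 knockouts and 259.2, 274.3 and 260.0 in their controls. At P14 it stood at 221.7, 218.8 and 213.2 CPM in the knockouts and 199.8, 200.4 and 206.5 CPM in the controls. The P0 groups overlapped, while the P14 knockouts all lay above the controls by a small margin (log2 fold change 0.12, SE 0.07, edgeR adjusted p = 0.423).

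Among the ephrin-A ligands, Efna3 was the most abundant per length at P14 and in the mean of the 4 groups, while at P0 Efna2 was higher, at 16.8 against 13.7 in knockouts and 14.9 against 13.0 in controls. The CPM of Efna3 was 34.1, 32.2 and 34.0 in P0 knockouts and 32.1, 30.5 and 32.5 in P0 controls. At P14 Efna3 stood at 44.5, 45.9 and 46.7 CPM in knockouts and 45.6, 47.8 and 38.97 CPM in controls. The genotypes overlapped in both settings. Of its exonic length 14.1% is shared with an antisense gene, Gm15998, and counting without strand cannot separate the pair.

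Epha4, a receptor that binds ephrins of both classes, led the EphA receptors. It stood at 182.2, 201.3 and 151.0 CPM in the P0 knockouts and 171.9, 145.5 and 156.2 CPM in their controls. In the P14 hippocampus it stood at 457.3, 464.4 and 442.3 CPM in knockouts and 502.9, 508.7 and 557.1 CPM in controls. All P14 knockouts lay below all P14 controls, but the log2 fold change of -0.19 did not pass the threshold (SE 0.07, edgeR adjusted p = 0.199). Ephb6, an Eph receptor without kinase activity, led the EphB receptors, at 56.6, 52.6 and 74.96 CPM in P0 knockouts and 53.0, 56.6 and 69.6 CPM in P0 controls. At P14 it stood at 66.6, 73.1 and 68.5 CPM in knockouts and 62.2, 58.9 and 61.9 CPM in controls, again separated without passing the threshold (log2 fold change 0.20, SE 0.07, edgeR adjusted p = 0.202).

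Slit1 was the leading Slit. It stood at 62.6, 64.7 and 77.1 CPM in P0 knockouts, 62.3, 65.9 and 71.0 CPM in P0 controls, 184.5, 189.9 and 151.9 CPM in P14 knockouts and 170.7, 175.5 and 195.7 CPM in P14 controls. The genotypes overlapped at both ages and every P14 library was above every P0 library. Robo2, a Slit receptor of neurons, was the leading Robo, at 204.1, 192.8 and 166.1 CPM in P0 knockouts, 226.3, 184.7 and 212.96 CPM in P0 controls, 148.1, 137.4 and 147.3 CPM in P14 knockouts and 142.9, 134.6 and 151.8 CPM in P14 controls. Here too the genotypes overlapped, and the P14 libraries were the lower ones.

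Ntng2, a lipid-anchored relative of the netrins that binds synaptic partners other than Dcc, led the netrin ligands. It stood at 38.6, 42.9 and 46.2 CPM in P0 knockouts, 34.0, 35.5 and 41.1 CPM in P0 controls, 52.6, 55.3 and 59.0 CPM in P14 knockouts and 54.7, 51.5 and 61.0 CPM in P14 controls. Of its exonic length 13.98% is shared with a neighbouring gene on the same strand. Neo1, the Dcc relative that also binds repulsive guidance molecules, led the netrin receptors, at 343.9, 356.8 and 302.1 CPM in P0 knockouts, 394.9, 334.2 and 350.5 CPM in P0 controls, 183.1, 167.7 and 198.7 CPM in P14 knockouts and 154.0, 194.2 and 217.0 CPM in P14 controls. The genotypes overlapped for both genes at both ages. At P14, Unc5a was higher per length than Neo1, at 32.3 against 21.0 in knockouts and 30.1 against 21.6 in controls.

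At the other end, Epha1 and Epha2, Eph receptors best known from epithelia, were the lowest of the 39 in every group, at or below 0.455 CPM per kilobase. From 12 to 15 of the 39 genes reached 10 CPM per kilobase in a group, and 3 or 4 were under 1. The order depends on the length used. With the longest transcript in place of merged exons, Ephb1 took the place of Ephb6 in both P0 groups but not at P14. In the P0 controls alone, Epha5 and Robo1 then took those of Epha4 and Robo2.

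**Figure D1:**
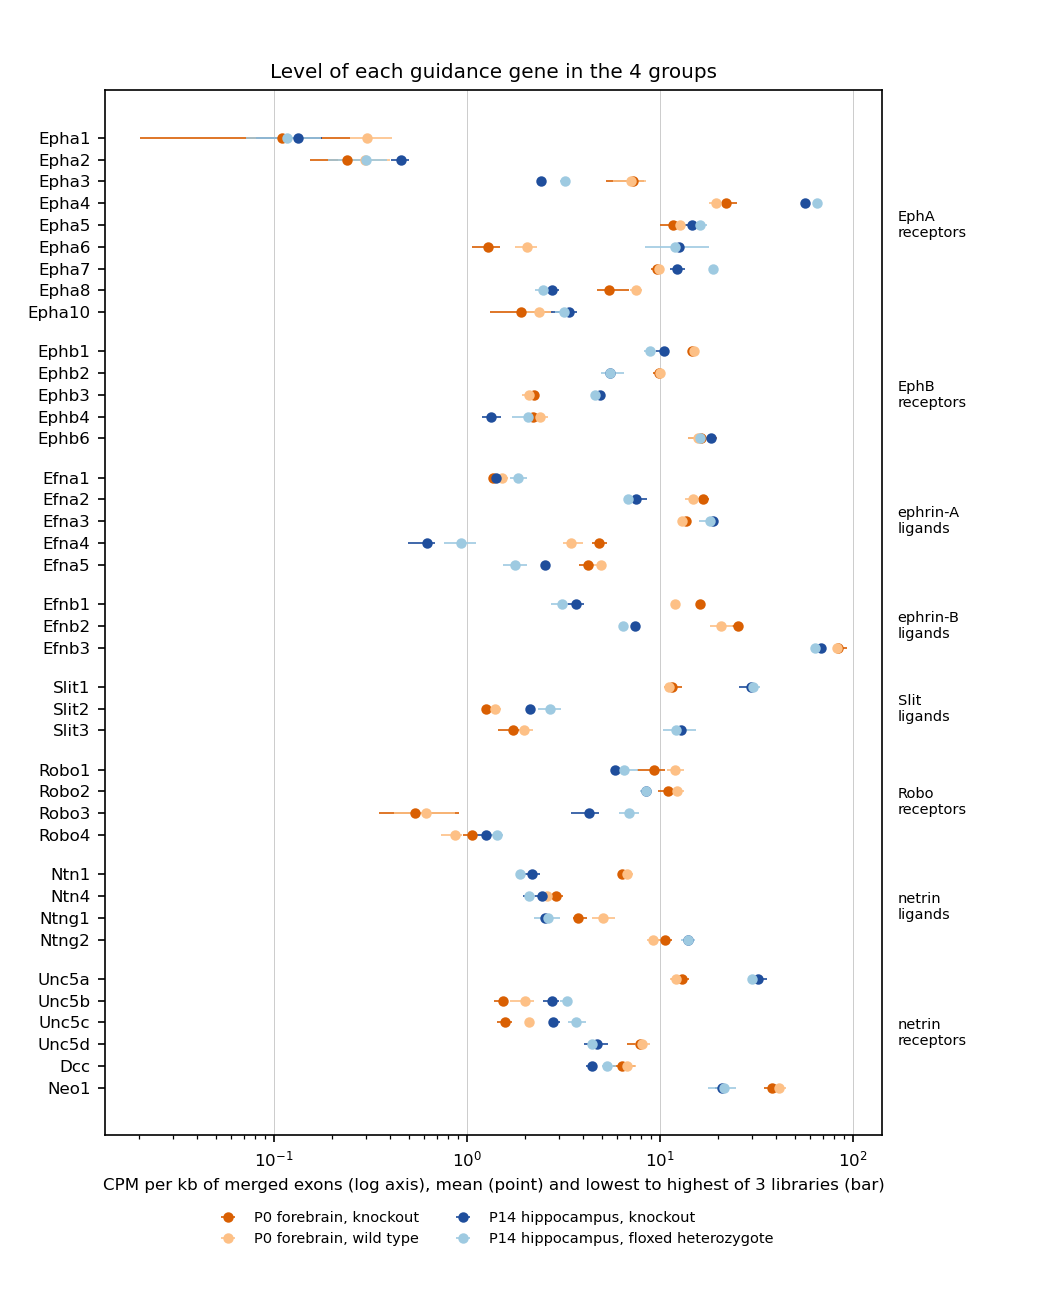
Level per length of the 39 genes in the 4 groups (log axis, CPM per kilobase of merged exons; points are means and bars run from the lowest to the highest of 3 libraries), ordered by family. Efnb3, Epha4 and Neo1 stand at the high end, and Epha1 and Epha2 at the low end in all 4 groups.

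P14 control hippocampus and P0 control forebrain differed for most of these genes. In the edgeR quasi-likelihood test, 34 of the 39 passed an adjusted p of 0.05, with 16 higher and 18 lower at P14. Among all 17355 genes tested, 64.7% passed, 32.5% higher and 32.2% lower, so a high count is the rule between these tissues and ages. The median log2 difference was -0.21 over the 39 genes and -0.00 over all genes. Bulk RNA cannot tell fewer cells of a type from less RNA per cell.

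All 3 Slits were higher in P14 hippocampus, with log2 differences of 2.61 for Slit3 (SE 0.17), 1.43 for Slit1 (SE 0.09) and 0.93 for Slit2 (SE 0.10). All 3 ephrin-B ligands were lower, at -1.95 for Efnb1 (SE 0.11), -1.69 for Efnb2 (SE 0.10) and -0.40 for Efnb3 (SE 0.07). The ephrin-A ligands Efna4 (-1.91, SE 0.24), Efna5 (-1.48, SE 0.14) and Efna2 (-1.13, SE 0.11) were also lower, and Efna3 was higher at 0.47 (SE 0.10). Ntn1, which encodes netrin-1, was lower by a log2 difference of -1.85 (SE 0.11). By role, 5 ligands were higher and 8 lower, while 11 receptors were higher and 10 lower.

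Among receptors, Robo3 had the largest difference of the 39 genes, 10.9-fold higher at P14 (log2 3.44, SE 0.20, edgeR adjusted p = 2.21e-08). Robo3 encodes a divergent Robo known from the crossing of commissural axons. Epha6 followed at 2.53 (SE 0.39), then Epha4 at 1.72 (SE 0.09), Unc5a at 1.29 (SE 0.08) and Ephb3 at 1.13 (SE 0.11). The receptors with the largest differences in the other direction were Epha8 at -1.59 (SE 0.12), Epha1 at -1.34 (SE 0.44), Epha3 at -1.14 (SE 0.12) and Neo1 at -0.94 (SE 0.11). Epha2, Ephb4, Ephb6, Efna1 and Ntn4 did not pass.

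The knockout libraries share no sample with the controls and gave a second view of the same contrast. In them 66.5% of 17110 genes passed. Of the 38 guidance genes tested there, 32 passed in the same direction as in the controls, 15 higher and 17 lower at P14. The matching share over all genes was not counted, so the 32 cannot be set against it. Robo4, a receptor of endothelial cells, passed in controls only, and Epha2 and Ephb4 in knockouts only. Whether these 3 differ between genotypes is the interaction tested below, and none of them passed it.

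**Figure D2:**
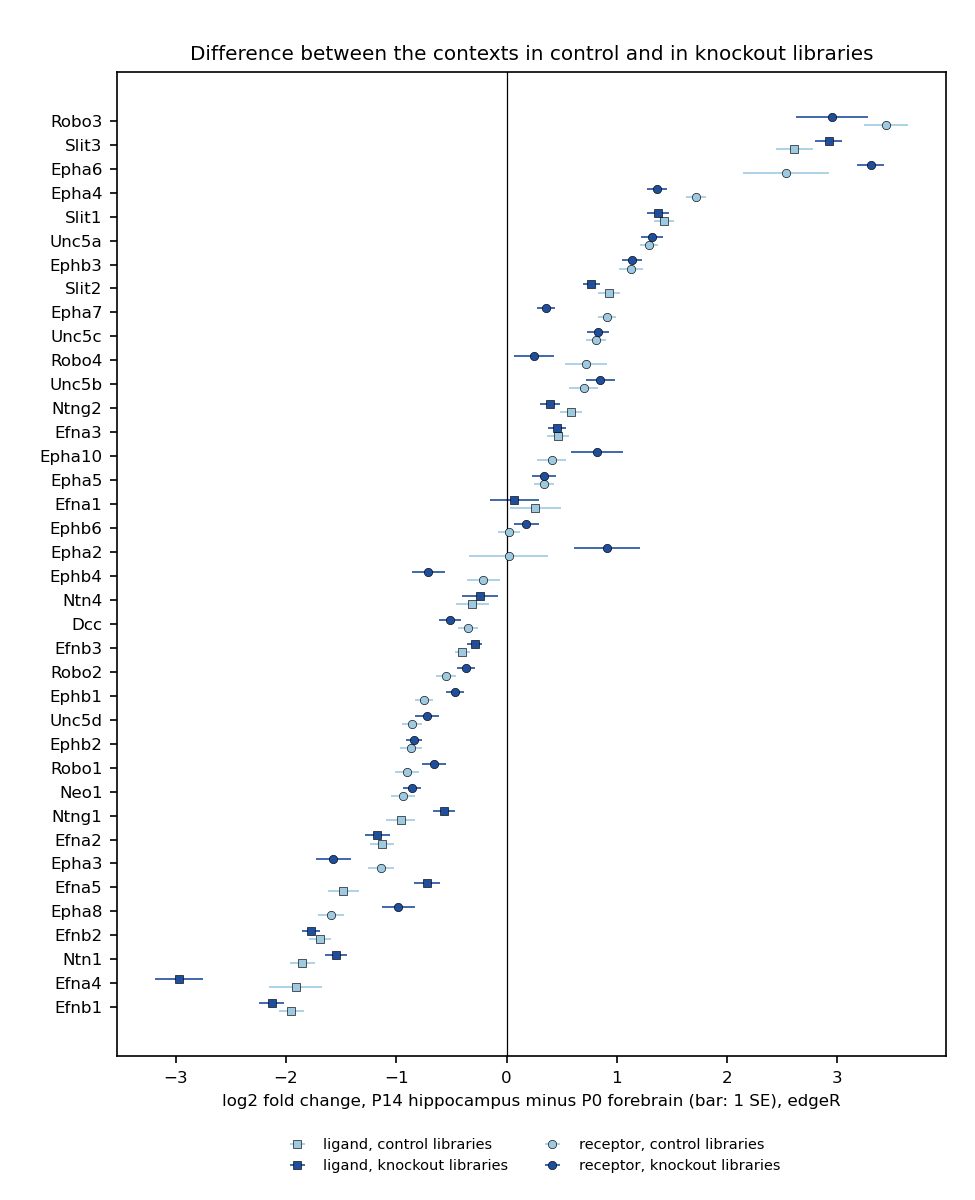
Log2 difference of P14 hippocampus over P0 forebrain (x axis) for each gene tested in both genotypes (rows, ordered by the value in controls), with control and knockout libraries, which share no sample, as separate points with bars of 1 SE; squares are ligands and circles receptors. Robo3 and Slit3 lie at the high end and Efnb1 and Efna4 at the low end.

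In the P14 hippocampus, 4 of the 39 genes passed the knockout comparison, and all 4 were receptors that fell: Epha7, Robo3, Epha3 and Unc5c. Their levels were 1.31- to 1.59-fold lower in the Nes-cre knockouts. The 4 make up 10.3% of the 39, against 1.99% of all 17208 genes tested, 1.21% higher and 0.773% lower. No ligand passed at P14 by edgeR, 3 of the 15 had an unadjusted p under 0.05, and DESeq2 called 0. Over all genes 15.2% had an unadjusted p under 0.05, and DESeq2 called 3.1%.

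Epha7, a receptor for ephrin-A ligands that marks borders between forebrain areas, had the smallest adjusted p of the 39 genes. It lies on chromosome 4, at 28813131 to 28967499 (GRCm38, plus strand). It stood at 119.1, 111.5 and 133.9 CPM in the knockouts and 186.2, 185.0 and 184.9 CPM in the controls. The controls lay close together, and the highest knockout was far below the lowest control. The log2 fold change was -0.60 (SE 0.08, edgeR adjusted p = 0.001), a 1.51-fold fall. The call held in 6 of 6 fits that left out 1 library and in 8 of 8 other settings.

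Robo3 lies on chromosome 9, at 37415669 to 37433246 (minus strand). It stood at 33.3, 31.6 and 23.6 CPM in the P14 knockouts and 46.9, 42.1 and 53.6 CPM in the controls. The groups did not overlap, and the third knockout was the lowest of the 6. The log2 fold change was -0.67 (SE 0.13, edgeR adjusted p = 0.0176), a 1.59-fold fall. The adjusted p was 0.0519 without knockout 2, 0.073 without control 1 and 0.289 in 1 fit on all 12 libraries, with log2 fold changes of -0.72, -0.69 and -0.68.

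Epha3, another ephrin-A receptor, lies on chromosome 16, at 63543534 to 63864175 (minus strand). It stood at 21.4, 20.4 and 21.4 CPM in the P14 knockouts and 29.5, 26.5 and 28.4 CPM in the controls. The groups did not overlap, and the knockouts were close to each other. The log2 fold change was -0.41 (SE 0.09, edgeR adjusted p = 0.0309), a 1.33-fold fall. The call was less stable than for Epha7. It held at -0.40 without control 3, and missed the threshold at -0.42 without knockout 1, -0.38 without knockout 2, -0.42 without knockout 3, -0.38 without control 1 and -0.45 without control 2, with edgeR adjusted p from 0.0816 to 0.138. It was also lost with the larger strand column (edgeR adjusted p = 0.0986) and in 1 fit on all 12 libraries (edgeR adjusted p = 0.264).

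Unc5c, a receptor for repulsion by netrin-1, lies on chromosome 3, at 141465216 to 141834924 (plus strand). It stood at 58.2, 51.1 and 50.7 CPM in the P14 knockouts and 63.9, 68.5 and 78.8 CPM in the controls, without overlap. The log2 fold change was -0.39 (SE 0.09, edgeR adjusted p = 0.0464), a 1.31-fold fall. It kept its call without control 1 (-0.46) or control 3 (-0.30), and missed the threshold at -0.46 without knockout 1, -0.36 without knockout 2, -0.36 without knockout 3 and -0.41 without control 2, with edgeR adjusted p from 0.0791 to 0.189. It was also lost with the larger strand column (-0.32, edgeR adjusted p = 0.119), upper-quartile scaling (-0.38, edgeR adjusted p = 0.0565) and a non-robust fit (-0.39, edgeR adjusted p = 0.0707).

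**Figure D3:**
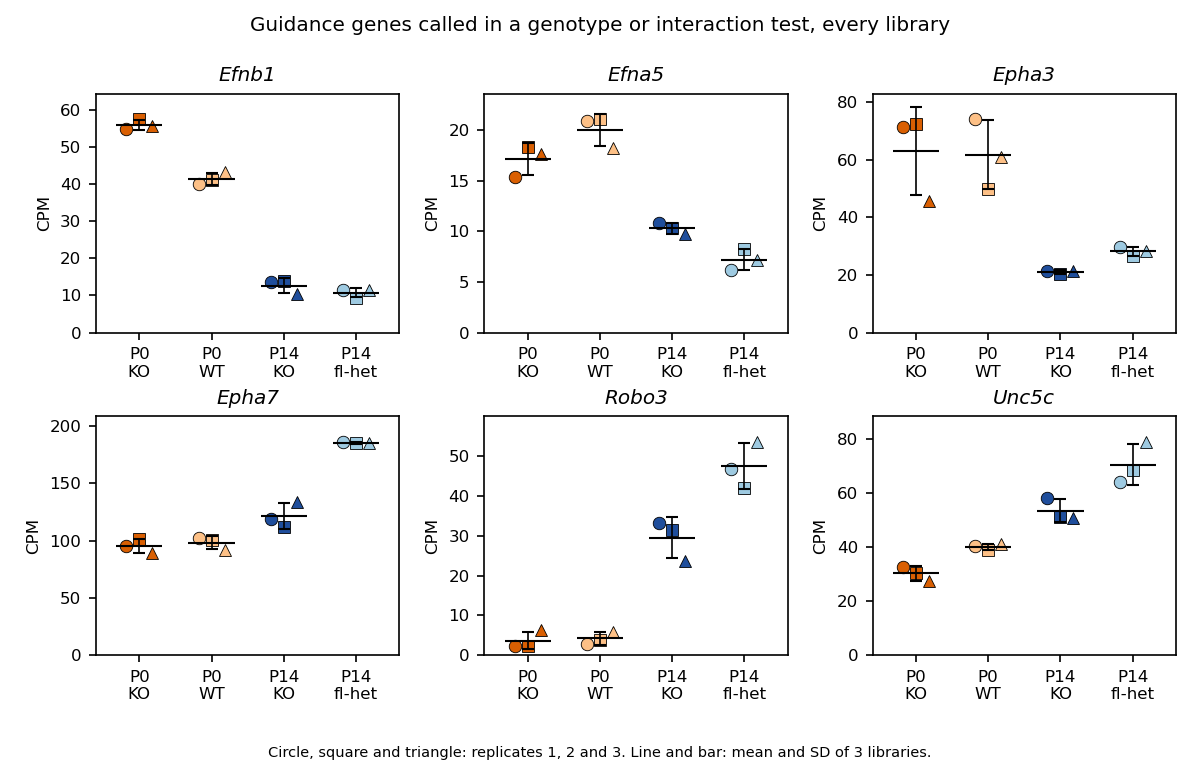
CPM in each of the 12 libraries for the 6 genes that passed the P0, P14 or interaction test (linear axes from 0; points are libraries, lines and bars are group means and SD). Epha7, Robo3, Epha3 and Unc5c show P14 knockouts below P14 controls, and Efnb1 shows P0 knockouts above P0 controls.

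The promoters of these 4 receptors are shown because the genes moved in 1 direction in the P14 comparison. Each is the RefSeq sequence on GRCm38.p6 from 250 bases before to 50 bases after a transcript start, 5′ to 3′ on the gene's strand. Capitals mark 3 motifs searched on both strands, GGGCGG for the GC box, TATAAA for the TATA box and CCAAT for the CCAAT box (no motif contains another, and neighbouring GC boxes can overlap). Epha7 (chr4:28812881-28813180, plus) held a GC box and CCAAT boxes, Robo3 (chr9:37433126-37433425, minus) held GC boxes, and Epha3 (chr16:63864126-63864425, minus) and Unc5c (chr3:141465314-141465613, plus) held none of the 3.
Epha7: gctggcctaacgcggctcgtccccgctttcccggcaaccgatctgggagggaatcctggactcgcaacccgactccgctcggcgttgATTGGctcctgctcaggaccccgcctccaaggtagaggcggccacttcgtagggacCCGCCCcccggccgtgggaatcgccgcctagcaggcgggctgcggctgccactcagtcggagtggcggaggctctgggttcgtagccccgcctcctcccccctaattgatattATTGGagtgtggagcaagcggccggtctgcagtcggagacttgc
Robo3: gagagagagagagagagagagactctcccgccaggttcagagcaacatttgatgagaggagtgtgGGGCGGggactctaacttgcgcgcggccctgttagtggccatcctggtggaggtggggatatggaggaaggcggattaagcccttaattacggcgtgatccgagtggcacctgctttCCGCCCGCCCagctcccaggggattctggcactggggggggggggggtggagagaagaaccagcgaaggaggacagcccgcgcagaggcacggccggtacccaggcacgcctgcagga
Epha3: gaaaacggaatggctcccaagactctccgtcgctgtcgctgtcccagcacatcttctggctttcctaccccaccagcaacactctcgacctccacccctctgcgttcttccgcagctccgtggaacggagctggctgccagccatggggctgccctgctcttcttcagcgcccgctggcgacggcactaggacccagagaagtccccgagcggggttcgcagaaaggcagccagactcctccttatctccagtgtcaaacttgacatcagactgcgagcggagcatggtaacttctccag
Unc5c: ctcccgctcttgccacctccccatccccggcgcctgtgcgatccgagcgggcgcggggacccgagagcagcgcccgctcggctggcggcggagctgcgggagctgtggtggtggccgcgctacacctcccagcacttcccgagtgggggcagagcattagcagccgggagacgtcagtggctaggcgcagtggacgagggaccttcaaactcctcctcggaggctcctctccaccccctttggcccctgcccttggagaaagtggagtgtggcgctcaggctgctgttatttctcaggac
The 4 windows held 28, 17, 18 and 24 CpG dinucleotides in that order. Epha7 had a second, overlapping window that is not printed (chr4:28812895-28813194, plus), with 27 CpG and the same kinds of motif. Promoters were found for 34 of the 39 genes, 39 windows in all, with a median of 22 CpG against 7 over the 32851 windows of the RefSeq table. A GC box was in 69.2% of the guidance gene windows and 35.7% of all windows, a CCAAT box in 41.0% and 37.4% and a TATA box in 5.13% and 13.6%. The letters describe the windows only, and binding was not measured.

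The other P14 receptors were spread on both sides of 0. Over the 24 receptors the median log2 fold change was -0.01 with 12 positive, and over the 39 genes it was 0.02 with 22 positive, beside -0.01 over all genes tested, of which 48.5% were positive. Knockouts and controls did not overlap for 18 of the 39, with 7 higher and 11 lower. Over all genes 20% did not overlap, 9.43% higher and 10.6% lower. Of the 39, 13 had an unadjusted p under 0.05, 4 higher and 9 lower, against 15.2% of all genes, 7.84% higher and 7.4% lower.

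Among the 9 lower genes that met the unadjusted threshold were, besides the 4 called, Ephb4 at -0.62 (SE 0.16), Slit2 at -0.33 (SE 0.10), Dcc at -0.26 (SE 0.09), Unc5b at -0.24 (SE 0.11) and Epha4. Ephb4, the ephrin-B2 receptor of venous endothelium, stood at 5.52, 6.13 and 6.995 CPM in knockouts and 7.97, 10.6 and 10.3 CPM in controls, with an edgeR adjusted p of 0.0687. On the higher side were Efna5 at 0.53 (SE 0.15), Ephb1 at 0.24 (SE 0.08), Efnb2 at 0.21 (SE 0.08) and Ephb6. None of these passed the adjusted threshold, but some did under other settings. Ephb4 passed in DESeq2 (-0.62, DESeq2 adjusted p = 0.0401). It also passed in 1 fit on all 12 libraries (-0.63, edgeR adjusted p = 0.033) and without a count filter (-0.62, edgeR adjusted p = 0.0193). Efna5 passed in 1 fit on all 12 libraries (0.52, edgeR adjusted p = 0.0479) and without a count filter (0.54, edgeR adjusted p = 0.0443). Slit2 passed without a count filter (-0.32, edgeR adjusted p = 0.014) and without control 1 (-0.42, edgeR adjusted p = 0.0378).

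The P14 count rested in part on the third control library. Over all genes, 1.99% passed with that library and 10.3% (1808 of 17491) without it. Without it, 10 of the 39 passed, namely the 4 receptors with Ephb4 (-0.57, edgeR adjusted p = 0.0453) lower, and Epha6 (0.51, adjusted p = 0.000226), Slit3 (0.33, adjusted p = 0.00553), Ephb1 (0.30, adjusted p = 0.0185), Efna5 (0.53, adjusted p = 0.0412) and Efnb2 (0.24, adjusted p = 0.0473) higher. Epha6 stood at 95.2 CPM in that library, against 49.9 and 44.4 CPM in the other controls and 65.4 to 67.6 CPM in the knockouts. Slit3 stood at 93.7 CPM there, against 63.5 and 62.9 CPM in the other controls and 74.3 to 82.8 CPM in the knockouts. Summed CPM of 10 choroid plexus markers was 2600 in the same library, 162 and 994 in the other controls and 1394 to 2071 in the knockouts, and its part in these values was not tested.

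Markers of several hippocampal and neighbouring cell types moved with genotype at P14. Of 10 dentate granule cell markers, 7 fell, and their summed CPM was 469 to 503 in knockouts and 663 to 720 in controls. Of 10 CA pyramidal markers 3 fell, with sums of 922 to 967 against 956 to 1037. Of 7 thalamus markers tested 2 fell (189.4 to 212.4 against 232 to 267), of 10 cortical excitatory markers 4 rose (2463 to 2669 against 2296 to 2477), and of 10 striatal markers 1 rose (117 to 203 against 77.3 to 107). Beside Ephb4, 0 of 10 endothelial markers passed in edgeR and 1 was called lower in DESeq2. At an unadjusted edgeR p under 0.05, 4 of the 10 were lower, against 7.4% of all genes. The endothelial sums were 236 to 249 in knockouts and 276 to 300 in controls. No marker of these lists was at 0 in a whole group, and their part in the receptor results was not tested.

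In the P0 forebrain, 1 of the 39 genes passed the knockout comparison. Efnb1, an X-linked transmembrane ephrin of neural progenitors, rose 1.34-fold in the Cmv-cre knockouts. That is 2.56% of the 39, against 0.909% of all 16176 genes tested, 0.192% higher and 0.717% lower. No receptor passed in edgeR, 6 of the 24 had an unadjusted p under 0.05, each with a negative value, and DESeq2 called 2, Epha6 and Unc5c. Over all genes 16.1% had an unadjusted p under 0.05, 9.17% lower, and DESeq2 called 2.31%.

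Efnb1 lies on chromosome X, at 99136130 to 99148991 (GRCm38, plus strand). It stood at 54.7, 57.4 and 55.7 CPM in the knockouts and 40.1, 41.0 and 43.2 CPM in the controls. The 3 knockouts were close to each other and all above the controls. The log2 fold change was 0.43 (SE 0.08, edgeR adjusted p = 0.0368). It missed the threshold at 0.45 without knockout 1, 0.41 without knockout 2, 0.40 without control 1 and 0.42 without control 2, with edgeR adjusted p from 0.111 to 0.219, and held at 0.43 without knockout 3 and 0.47 without control 3. It was also lost with the larger strand column (0.36, edgeR adjusted p = 0.112) and a non-robust fit (edgeR adjusted p = 0.0515). Within the 4 libraries of the first number series it was 0.47 (edgeR adjusted p = 0.000385). At P14 Efnb1 stood at 13.5, 13.99 and 10.4 CPM in knockouts and 11.5, 9.38 and 11.4 CPM in controls, which overlapped (log2 fold change 0.25, edgeR adjusted p = 0.446).

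The promoter of Efnb1 (RefSeq, GRCm38.p6, chrX:99135811-99136110, plus) is given as that of the only P0 call. It held a CCAAT box, in capitals, and 14 CpG dinucleotides, the fewest of the 5 windows printed.
Efnb1: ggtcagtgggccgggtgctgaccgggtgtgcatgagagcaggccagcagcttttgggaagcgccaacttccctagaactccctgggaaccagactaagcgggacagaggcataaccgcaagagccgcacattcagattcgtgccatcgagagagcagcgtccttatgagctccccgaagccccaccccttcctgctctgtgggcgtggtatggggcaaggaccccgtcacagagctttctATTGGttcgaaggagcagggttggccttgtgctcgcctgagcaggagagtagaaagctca

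The other ephrin-B ligands had positive values at P0 as well. Efnb2, the arterial and neuronal partner of EphB receptors, stood at 177.7, 183.0 and 163.1 CPM in knockouts and 139.8, 124.9 and 163.3 CPM in controls, where the third library of each genotype was alike (log2 fold change 0.28, SE 0.09, edgeR adjusted p = 0.157). Efnb3 was at 0.02 (SE 0.08). Efna4 was at 0.47 (SE 0.17, edgeR adjusted p = 0.204), with 7.56, 7.13 and 8.53 CPM in knockouts against 5.04, 5.18 and 6.37 CPM in controls. Those groups did not overlap, and 10.5% of the exonic length of Efna4 is shared with an antisense gene.

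Several receptors and 1 ligand had negative values at P0 that missed the threshold. Unc5c stood at 32.8, 30.3 and 27.5 CPM in knockouts and 40.2, 38.96 and 41.0 CPM in controls (log2 fold change -0.41, SE 0.10, edgeR adjusted p = 0.0565). Epha6 stood at 6.92, 7.88 and 5.63 CPM against 12.3, 9.40 and 11.02 CPM (-0.69, SE 0.17, edgeR adjusted p = 0.0705). Ntng1, a lipid-anchored netrin relative, stood at 29.7, 29.3 and 34.6 CPM against 36.8, 48.1 and 40.5 CPM (-0.42, SE 0.11, edgeR adjusted p = 0.0855). In all 3 genes every knockout lay below every control. Epha1 had the most negative value, -1.30 (SE 0.58, edgeR adjusted p = 0.283), but as few as 1 read in a knockout library.

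Over the 24 receptors the median P0 log2 fold change was -0.11, with 18 negative and 6 positive. Over the 15 ligands it was 0.03, with 9 positive. The EphA receptors had the lowest family median at -0.29 and the ephrin-B ligands the highest at 0.28. Over the 39 genes the median was -0.09, beside -0.00 over all genes tested, of which 49.9% were positive. Knockouts and controls did not overlap for 10 of the 39, 3 higher and 7 lower, against 21.8% of all genes, 10.7% higher and 11.1% lower. Of the 39, 10 had an unadjusted p under 0.05, 3 higher and 7 lower, against 16.1% of all genes, 6.95% higher and 9.17% lower.

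The P0 calls differed between the fit of all 6 libraries and that of the first library number series. In the 4 libraries of the first series alone, 8 of the 39 passed, with Efnb1 (0.47), Efnb2 (0.45) and Epha4 (0.28) higher and Epha1 (-2.90), Epha10 (-0.68), Epha8 (-0.66), Ntng1 (-0.52) and Unc5c (-0.32) lower, where 2107 genes of the whole table passed. Epha8 stood at 22.2 and 22.7 CPM in the first 2 knockouts and 32.6 in the third, against 33.0 to 38.3 CPM in controls. With the series as a term in the fit, 3 of the 39 and 2.87% of all genes passed, against 12.9% of all genes in the first series alone. The second series held only 1 library of each genotype and gives no value of its own.

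At P0, of 8 dentate granule markers tested 2 fell (summed CPM over 10 markers 183 to 197 in knockouts, 231 to 269 in controls) and of 10 astrocyte markers 1 fell (655 to 665 against 706 to 905). At an unadjusted edgeR p under 0.05, 6 of the 10 astrocyte markers were lower, against 9.17% of all genes. DESeq2 called 4 astrocyte markers lower, and 2.31% of all genes in either direction. Of 7 forebrain regional markers 1 rose, with sums of 533 to 650 against 441 to 521. Of 10 cortical excitatory markers Fezf2 rose and Slc17a7 fell, with sums of 1438 to 1598 against 1197 to 1554. Of 9 CA pyramidal markers tested none passed in edgeR, 3 had an unadjusted p under 0.05, against 16.1% of all genes, and DESeq2 called 2 higher. The CA pyramidal sums over 10 markers did not overlap, at 555 to 616 against 455 to 507. No marker of these 5 lists was at 0 in a whole group. In other lists Tac1 (striatal), Prkcd (thalamus) and P2ry12 (microglia) fell. Sums of striatal, oligodendrocyte precursor and oligodendrocyte markers were lower in knockouts without overlap. For the precursors they were 385.7 to 412.5 against 448.8 to 505.9. Choroid plexus sums were higher without overlap, at 915.7 to 1012.5 against 685.2 to 864.7. No oligodendrocyte precursor, oligodendrocyte or choroid plexus marker passed in edgeR, and DESeq2 called 2 precursor markers lower. Of 10 neural progenitor markers none passed in edgeR or DESeq2. At an unadjusted edgeR p under 0.05, 3 of them were higher and 0 lower, against 6.95% of all genes higher. The progenitor sums overlapped, at 298.5 to 340.1 in knockouts and 279.8 to 312.8 in controls. The part of all these markers in the Efnb1 result was not tested.

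**Figure D4:**
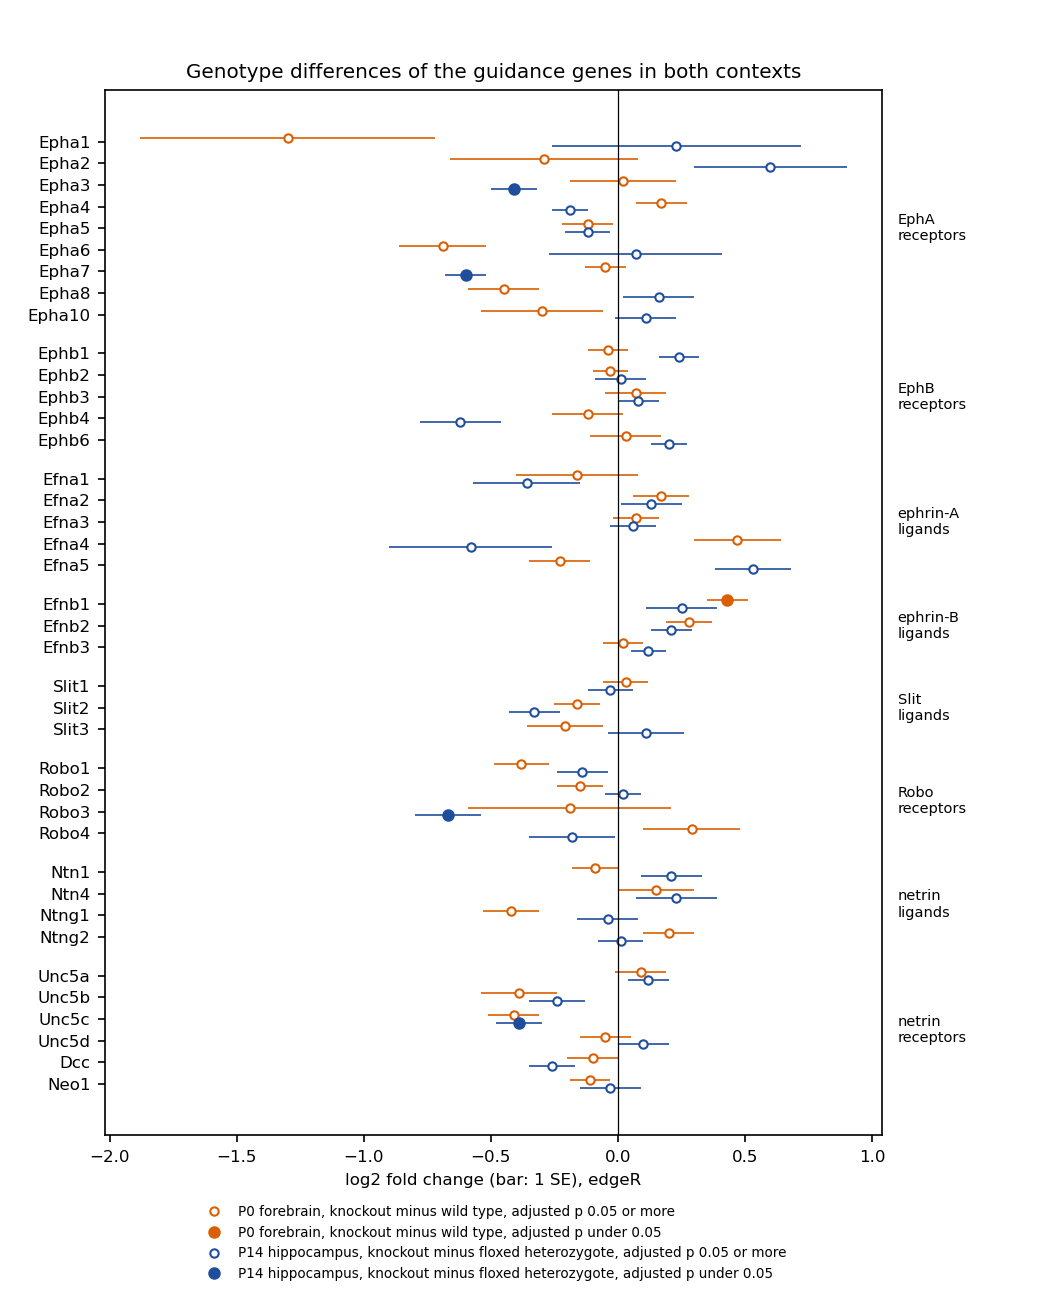
Log2 fold change of knockout over control with SE for each of the 39 genes, at P0 and at P14. The 4 calls at P14 are receptors below 0, and the call at P0 is Efnb1 above 0.

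The difference between the P14 and P0 genotype effects was tested directly as the interaction in a fit of all 12 libraries. Epha7 and Efna5 passed, 5.13% of the 39 against 1.79% of all 18189 genes tested, 1.37% higher and 0.423% lower. For Epha7, P0 values were 95.1, 101.5 and 89.2 CPM in knockouts and 102.0, 100.5 and 91.5 CPM in controls, which overlapped, in contrast to the gap at P14 (interaction log2 -0.57, SE 0.11, edgeR adjusted p = 0.0111). Leaving out each of the 12 libraries kept the Epha7 call each time. With the larger strand column it was -0.46 (edgeR adjusted p = 0.0571).

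Efna5 encodes an ephrin-A ligand known from the mapping of axons across their targets. It lies on chromosome 17, at 62604184 to 62881317 (minus strand). It stood at 15.4, 18.3 and 17.7 CPM in P0 knockouts and 20.8, 21.1 and 18.2 CPM in P0 controls. At P14 it stood at 10.8, 10.4 and 9.73 CPM in knockouts and 6.18, 8.21 and 7.17 CPM in controls. The P14 knockouts were all above their controls, while the P0 knockouts were on the low side and overlapped theirs through the third control. Neither single comparison passed, at -0.23 for P0 (SE 0.12, edgeR adjusted p = 0.364) and 0.53 for P14 (SE 0.15, edgeR adjusted p = 0.0846), while their difference was 0.74 (SE 0.18, edgeR adjusted p = 0.0417).

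The Efna5 interaction kept its call without P0 knockout 3 (0.77), P0 control 3 (0.83), P14 control 2 (0.85) or P14 control 3 (0.74). It missed the threshold at 0.67 and 0.79 without P0 knockout 1 or 2, at 0.73 and 0.70 without P0 control 1 or 2, at 0.71, 0.74 and 0.78 without P14 knockout 1, 2 or 3, and at 0.65 without P14 control 1, with edgeR adjusted p from 0.053 to 0.121. For the other receptors called at P14, the interaction was -0.44 for Epha3 (edgeR adjusted p = 0.383), -0.51 for Robo3 (edgeR adjusted p = 0.687) and 0.01 for Unc5c (SE 0.14, edgeR adjusted p = 0.985). Epha3 overlapped at P0, at 71.2, 72.2 and 45.5 CPM in knockouts and 74.0, 49.98 and 61.1 CPM in controls. Unc5c had nearly the same value in both settings, -0.41 at P0 and -0.39 at P14. Robo3 was low at P0, at 2.39, 2.40 and 6.23 CPM in knockouts and 2.86, 3.81 and 5.92 CPM in controls, with the third library high in both genotypes.

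Efna4 had separated groups in opposite directions. At P14 it was at 1.09, 0.790 and 1.08 CPM in knockouts and 1.44, 1.79 and 1.21 CPM in controls (log2 fold change -0.58, SE 0.32), against the positive value at P0. The interaction was -1.07 (SE 0.33) with an edgeR adjusted p of 0.11.

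Ligands and receptors were also compared by their summed level per length. Ligands made up 50.5%, 49.3% and 53.8% of the summed level of the 39 genes in the P0 knockouts and 46.1%, 50.02% and 48.9% in their controls, which overlapped. At P14 they made up 43.0%, 43.4% and 42.5% in the knockouts and 40.9%, 40.6% and 39.3% in the controls, and every knockout was above every control. Summed receptor levels at P14 were 233.7 ± 0.705 CPM per kilobase in knockouts and 250.1 ± 17.8 in controls (SD, n = 3), and summed ligand levels were 176.2 ± 3.87 and 168.5 ± 5.87 (SD, n = 3). The receptor sums lay at 232.9 to 234.3 in knockouts and 238.4 to 270.6 in controls.

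Within the Eph system, ephrins made up 61.0%, 60.0% and 63.1% of the ephrin and Eph level in P0 knockouts and 57.6%, 60.0% and 59.3% in P0 controls. At P14 they made up 43.4%, 43.3% and 42.6% in knockouts and 40.4%, 40.6% and 37.2% in controls. The P14 genotypes were apart and those of P0 touched. Summed EphA level at P14 was 103.5 to 106.3 CPM per kilobase in knockouts and 114.5 to 133.0 in controls, and most of it was Epha4, Epha7, Epha5 and Epha6. Summed ephrin-B level was 77.2 to 81.1 against 71.9 to 74.8. These sums weigh abundant genes most and carry no test.

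**Figure D5:**
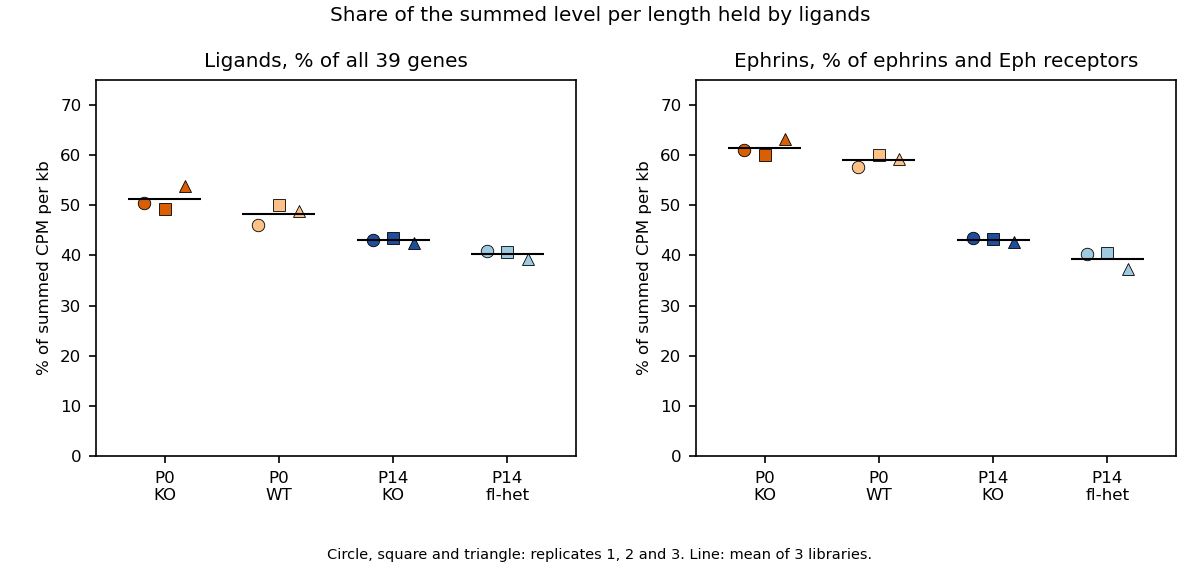
Ligand percent of the summed level per length of the 39 genes, and ephrin percent of the ephrin and Eph level, in each of the 12 libraries (points; lines are group means). P14 knockouts lie above P14 controls in both panels, and both P14 groups lie below both P0 groups.

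Of 50 other genes of these pathways, listed as signalling partners of Eph and ephrin, Slit and Robo, or netrin receptors, all 50 were tested. At P0 none passed in edgeR or DESeq2, and 11 had an unadjusted p under 0.05, against 16.1% of all genes. At P14, 2 passed in edgeR and both rose, 4% of the 50 against 1.99% of all genes. DESeq2 called 6, with 4 higher and 2 lower, and 3.1% of all genes. Ngef encodes ephexin-1, which acts downstream of EphA receptors. It stood at 101.2, 111.6 and 111.7 CPM in P14 knockouts and 76.9, 80.5 and 68.0 CPM in controls, well apart (log2 fold change 0.54, SE 0.08, edgeR adjusted p = 0.0029), and kept its call in all 6 fits that left out 1 library. Chn2 encodes a Rac-inactivating chimaerin, and stood at 31.8, 35.1 and 29.9 CPM against 20.1, 25.8 and 19.7 CPM (0.58, SE 0.11, edgeR adjusted p = 0.0156). Chn2 missed the threshold at 0.58 without knockout 1, 0.51 without knockout 2 and 0.52 without control 1.

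The interaction was called for 3 of the 50 in edgeR, 6% against 1.79% of all genes. DESeq2 called 5 of the 50 and 2.92% of all genes. Ngef was at 0.72 (edgeR adjusted p = 0.00271), with P0 values of 48.5, 54.8 and 57.4 CPM in knockouts and 63.1, 62.6 and 58.3 CPM in controls. Ablim1, an actin-binding protein, was at 0.50 (edgeR adjusted p = 0.0265). It stood at 169.3, 180.8 and 168.7 CPM against 210.6, 192.7 and 211.8 CPM at P0, and at 125.5, 118.3 and 133.99 CPM against 95.6, 105.2 and 115.7 CPM at P14, so the knockouts were on the low side at P0 and the high side at P14. Draxin, a secreted repellent that binds Dcc and netrin-1, was at -0.64 (edgeR adjusted p = 0.0139). It stood at 105.5, 113.1 and 117.7 CPM against 99.1, 91.0 and 100.6 CPM at P0, and at 9.10, 8.64 and 10.6 CPM against 11.7, 13.3 and 13.1 CPM at P14, the reverse order of Ablim1. For Ablim1 and Draxin neither single comparison passed. The Draxin interaction missed the threshold at -0.62 without P14 knockout 1, -0.58 without P14 knockout 2 and -0.61 without P14 control 2. That of Ablim1 missed it at 0.48 without P0 knockout 1, 0.50 without P0 control 1, 0.50 and 0.45 without P14 knockout 1 or 3, and 0.43 and 0.50 without P14 control 1 or 2.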

How the data were processed

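Poly(A) or other enrichment is not given in the sources used here. Per the labels' protocols, DNase-treated total RNA went into Illumina TruSeq RNA libraries that were sequenced as 150 bp read pairs. The submitters' processing notes name STAR 2.7.5a, edgeR 3.12 and GRCm38. The authors deposited raw counts per Ensembl gene for each library, in an unstranded and 2 strand columns. The strand columns were nearly equal (49.88% to 49.98% of their sum in the first of them), so the unstranded counts were used, and antisense and overlapping genes cannot be separated in them. A fit on the larger strand column alone therefore rested on far fewer counts per gene.

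Symbols, coordinates and exon lengths came from GENCODE vM21 (GRCm38), and 55227 of 55487 identifiers matched. The deposited counts are labelled with annotation release 102, and the exon lengths were not checked against that release. Each comparison was fitted on all genes with edgeR 4.0.16 in R 4.3.3 (filterByExpr, TMM, robust glmQLFit, glmQLFTest), with Benjamini-Hochberg adjustment over all genes and a threshold of 0.05. The P0, P14 and control comparisons used their own 6 libraries and the interaction all 12. CPM are on 1 TMM scale over the 12 libraries, and each SE was derived from the fitted log2 coefficient divided by the square root of F. On simulated counts with 200 genes changed 2-fold, 86.5% were recovered at P0 (16176 genes), 88% at P14 (17208 genes), 73% for the interaction (18189 genes) and 86.5% for the control comparison (17355 genes), with 3.35%, 6.38%, 3.95% and 3.35% of calls false. The simulation gave every gene the same spread between replicates, with no library number series and no outlying library. Its recovery and false-call shares therefore do not carry over to the real libraries or to changes under 2-fold.

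Replicates are individual mice, whose numbers follow accession order and pair no libraries. Replicate pairs differed by more than sampling noise (chi-square per degree of freedom 3.1 to 19.3), with r of log2 CPM from 0.990 to 0.995. Named with values in every library are genes with an adjusted p under 0.05 in the P0, P14 or interaction test and the most abundant gene per length of each family. Some others close to the threshold were chosen after their values were seen. The genes, the pathway list and the marker lists were chosen with earlier results of these data known. Of 16 marker lists, those not described in the text had at most 1 gene called in edgeR at either age. At P14 DESeq2 called 2 GABAergic interneuron markers and 3 mural, fibroblast and meningeal markers lower. The mural, fibroblast and meningeal sums were then 321 to 448 CPM in knockouts and 471 to 505 in controls. The hindbrain and spinal cord list summed to at most 11.6 CPM, with Hoxa2, Hoxb2 and Hoxb3 at 0 in every library. Alternatives were DESeq2 1.42.0, upper-quartile or RLE scaling, counts from the larger strand column, other count filters, a non-robust fit, 1 fit on all libraries, the library number series, another gene length and each library left out in turn. Isoforms and exon 7 were not analysed here.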

Additional observations from a re-analysis of the deposited data

Results flagged for a closer look

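For 5 genes the difference between the genotype effects at P14 and P0 itself passed the edgeR test with adjustment over all genes. The P14 minus P0 difference of log2 fold changes was -0.57 for Epha7, 0.74 for Efna5, 0.72 for Ngef, -0.64 for Draxin and 0.50 for Ablim1. The sets differ in age, tissue, Cre line and the genotype of the controls, and these cannot be told apart.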

How the results depend on the processing

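No paired analysis was possible because the replicate numbers follow accession order and the labels pair no libraries across groups. The P0 count moved most. From 147 genes (0.909% of those tested) and 1 guidance gene it went to 374 (2.31%) and 4 with DESeq2, 625 (1.99%) and 7 without a count filter, 50 (0.309%) and 0 with a non-robust fit, 284 (1.56%) and 2 in 1 fit on all 12 libraries, 465 (2.87%) and 3 with a term for the library number series, and 2107 (12.9%) and 8 in the first series alone. The guidance genes called were 0 from the larger strand column and 2 under upper-quartile scaling. Leaving out 1 library gave 1 to 775 genes (0.00604% to 4.69%) and 0 to 7 guidance genes.

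At P14, 342 genes (1.99%) and 4 guidance genes went to 534 (3.1%) and 5 with DESeq2, and 814 (2.48%) and 7 without a count filter. From the larger strand column 2 guidance genes were called. Leaving out 1 library gave 104 to 1808 genes (0.595% to 10.3%) and 1 to 10 guidance genes. The interaction was called for 1.79% of genes, 1.14% from the larger strand column, 531 genes (2.92%) with DESeq2 and 646 (1.83%) without a count filter. Leaving out 1 library gave 0.669% to 4.85% (125 to 905 genes). Its 2 guidance genes became 0 from the larger strand column and 1 to 5 when 1 library was left out. The control comparison kept 31 to 35 guidance genes called under the settings run, and its share of all genes was 36.7% without a count filter.

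With the longest transcript as length, the ligand percent was 46.5 in P0 knockouts, 43.2 in P0 controls, 39.1 in P14 knockouts and 36.5 in P14 controls, the summed ligand level 234, 218, 203 and 196 CPM per kilobase, and the summed receptor level 270, 286, 316 and 341 in that order. From the larger strand column the ligand percent was 44.3 in P14 knockouts and 41.5 in P14 controls. No called result changed direction. The cause of these changes was not tested. An alternative can itself bring fewer libraries, another number of genes or fewer counts per gene, and the part of these was not separated. Depth limits Epha1 and Epha2 most, the least abundant of the 39 per length in every group.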
